A study of Mus musculus with 12 samples.

Results

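The inhibin, activin and follistatin system was followed through 10 genes in ovaries with and without Foxl2, whose product is a forkhead protein that granulosa cells, the cells around the oocyte, need to keep their identity. The members were taken by gene symbol: Inha, Inhba and Inhbb encode the ligand subunits, Fst and Fstl3 the proteins that bind activin, Acvr1b, Acvr2a and Acvr2b its receptors, and Tgfbr3 and Igsf1 membrane proteins that have been linked to inhibin. All 10 were measured on both array types, among 19938 genes on the adult arrays and 18194 genes on the newborn arrays. The adult set held 8 arrays, each of a single animal at 8 weeks: 2 of wild-type ovary, 3 of Foxl2 mutant ovary, given in the labels as Foxl2 flox/flox x CreEBD, and 3 of wild-type testis. Newborn ovaries were taken on postnatal day 3 (P3) and measured on 4 arrays, each from a pool of more than 10 females, with 2 pools of wild type and 2 of Foxl2 knockout (KO). The labels used here name no promoter for the Cre transgene, no time at which the floxed gene was deleted and no Cre status of the wild-type animals. Whole ovaries, or 0.25 of a testis, were used, so every value is a mean over all cell types of the organ. In such bulk samples, fewer cells of a type and less RNA per cell cannot be told apart.

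Activins are dimers of β subunits, which are encoded by Inhba and Inhbb, and inhibins join a β subunit to the α subunit encoded by Inha. Activin binds a type II receptor (Acvr2a or Acvr2b), which recruits the type I receptor Acvr1b and leads to phosphorylation of the transcription factors Smad2 and Smad3. Inhibin occupies the type II receptors without signalling, helped by the co-receptor betaglycan (Tgfbr3), and follistatin wraps around activin and keeps it from its receptors. In the ovary the subunits and follistatin are known as products of granulosa cells, and inhibin from the gonads lowers the release of follicle-stimulating hormone by the pituitary.

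In adult mutant ovaries Fst, Inhba and Inhbb fell, Fstl3 rose, and the 6 other members did not pass the test, Inha and all receptors among them. Fst was lower 11.2-fold, Inhba 9.27-fold and Inhbb 2.79-fold, whereas Fstl3 was higher 7.17-fold. Thus 3 of 10 members fell and 1 rose, where 6.66% of all genes fell, 9.55% rose and 16.2% changed in either direction (limma at a threshold of 0.05, adjusted by Benjamini-Hochberg across all genes). The members had a median difference of -0.11 on the log2 scale, against -0.02 over all genes tested.

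**Figure D1:**
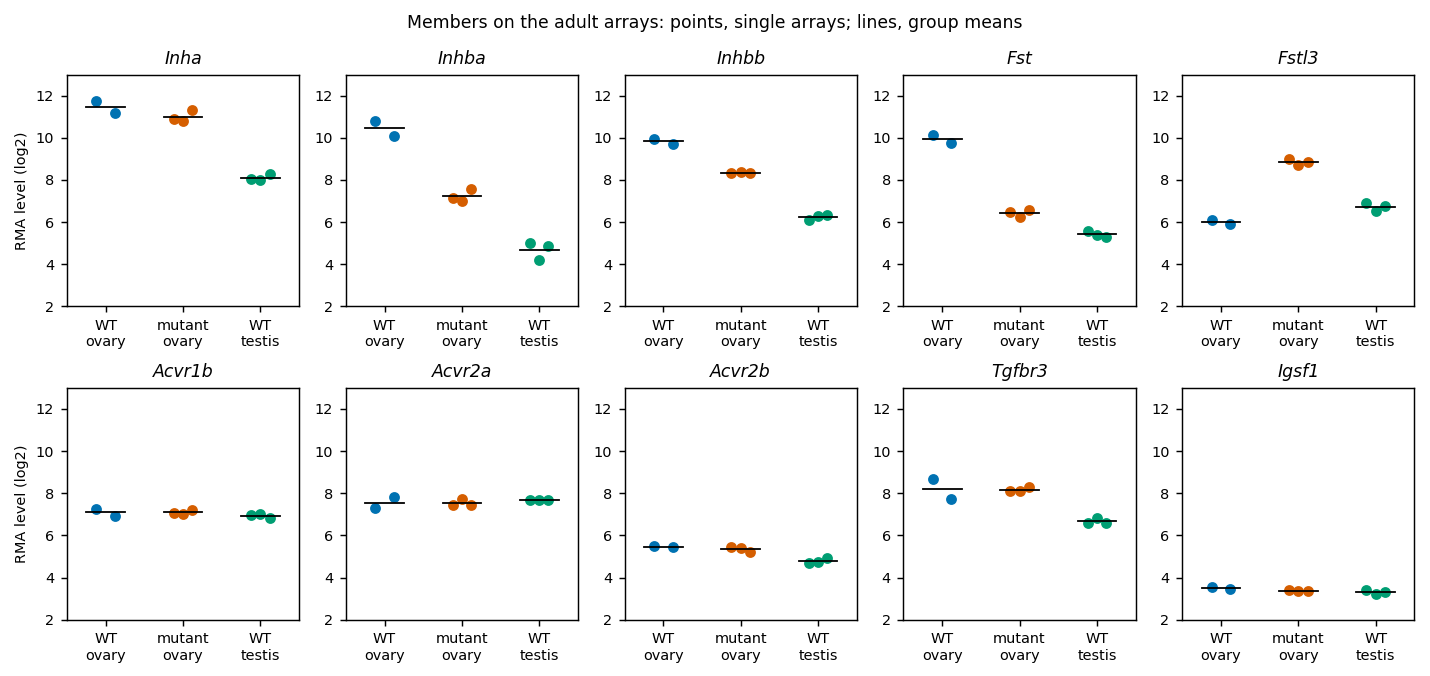
RMA level (log2) of the 10 members on each adult array, by group: wild-type ovary (2 arrays), mutant ovary (3 arrays) and wild-type testis (3 arrays). Points are single arrays and lines are group means. Fst, Inhba and Inhbb lie lower in every mutant ovary than in both wild-type ovaries, Fstl3 lies higher, and the groups overlap for Acvr1b and Acvr2a.

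The start regions of the members that changed are shown because Inhba and Inhbb moved one way and Fstl3 the other. The sequences are those of RefSeq on GRCm38.p6 and run from 250 bases before to 50 bases after the start of the gene. Of the 10 members 8 had such an entry, and Fst and Tgfbr3 had none. Capitals mark matches to 5 motifs, searched on both strands. The forkhead core was searched as TAAACA, since Foxl2 belongs to this family of DNA-binding proteins. The Smad box, to which Smad3 and Smad4 bind, was searched as CAGACA. The site of Nr5a nuclear receptors, which drive genes of steroid synthesis in gonads, was searched as AAGGTCA. The cAMP response element, through which gonadotropins reach many ovarian genes, was searched as TGACGTCA. The TATA box, which helps to place the start of transcription in some promoters, was searched as TATAAA. The windows are chr13:16011601-16011900 on the plus strand for Inhba, chr1:119422199-119422498 on the minus strand for Inhbb and chr10:79777024-79777323 on the plus strand for Fstl3.
Inhba: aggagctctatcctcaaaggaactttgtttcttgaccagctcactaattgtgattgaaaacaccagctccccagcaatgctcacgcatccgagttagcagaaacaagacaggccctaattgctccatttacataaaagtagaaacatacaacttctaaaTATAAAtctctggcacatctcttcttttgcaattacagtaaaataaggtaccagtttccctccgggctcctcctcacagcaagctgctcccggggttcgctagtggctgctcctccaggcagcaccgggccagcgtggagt
Inhbb: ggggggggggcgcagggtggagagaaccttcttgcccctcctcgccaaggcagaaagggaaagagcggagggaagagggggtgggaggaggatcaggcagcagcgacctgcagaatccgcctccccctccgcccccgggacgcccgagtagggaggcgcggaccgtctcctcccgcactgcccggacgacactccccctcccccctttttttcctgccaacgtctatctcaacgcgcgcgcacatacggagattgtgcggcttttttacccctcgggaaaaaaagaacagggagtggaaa
Fstl3: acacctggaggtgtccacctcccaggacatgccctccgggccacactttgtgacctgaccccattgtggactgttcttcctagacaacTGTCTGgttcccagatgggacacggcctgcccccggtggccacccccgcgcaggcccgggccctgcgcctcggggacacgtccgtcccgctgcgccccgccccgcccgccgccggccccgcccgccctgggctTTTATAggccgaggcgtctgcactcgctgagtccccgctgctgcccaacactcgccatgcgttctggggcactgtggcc
The Inhba window held the TATA box, from 91 bases before the start. The Fstl3 window held the Smad box, from 162 bases before the start, and the TATA box, from 29 bases before it, both on the minus strand and without overlap. The Inhbb window held none of the 5 motifs. Of 32851 windows of the same length in the table, 13.6% held the TATA box, 21% the Smad box, 13.4% the forkhead core, 4.72% the Nr5a site and 1.79% the cAMP response element. Such matches only describe the letters. The windows also differed in base composition: G and C made up 47.7% of the Inhba window, 64.3% of the Inhbb window and 70.7% of the Fstl3 window, beside a median of 52.7% over all windows. The Inhba window held 7 CpG dinucleotides, the Inhbb window 23 and the Fstl3 window 25.

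The targeted gene and the libraries were checked first. Foxl2 stood at 8.75 and 8.81 in the adult wild-type ovaries, at 5.73 to 6.04 in the mutant ovaries and at 5.22 to 5.38 in the testes. At P3 Foxl2 gave 814.5 and 829.9 in wild type against 186.4 and 153.7 in KO (MAS5 signal). Markers of the labelled organs were checked, and the 6 spermatid genes averaged 11.3 to 11.4 (log2) in the testes and 3.96 to 4.28 in the adult ovaries. The 2 wild-type ovaries correlated less with each other across genes (r = 0.976) than the mutant ovaries (0.989 to 0.991) or the testes (0.995 to 0.996) did, and each adult result is therefore followed without either of them where this matters.

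Among the ligand subunits, Inhba gave the widest spread between groups. On the RMA scale (log2), wild-type ovaries 1 and 2 had 10.80 and 10.10, the 3 mutant ovaries 7.13, 7.01 and 7.57, and the 3 testes 5.0, 4.20 and 4.86. All mutant values lay below both wild-type ovaries and above every testis. The mutant difference from wild-type ovary was -3.21 ± 0.28 (SE, n = 3 and 2, limma adjusted p = 3.2e-05), and it lay between -3.56 and -2.86 when either wild-type ovary was left out. Inhbb, the other β subunit, had 9.93 and 9.72 in wild type, 8.33, 8.38 and 8.33 in the mutants, and 6.10, 6.29 and 6.35 in testis. The groups did not overlap, and the difference was -1.48 ± 0.12 (adjusted p = 2.53e-05).

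Inha, the α subunit that makes inhibin, was the only subunit that missed the threshold. Wild-type ovaries gave 11.73 and 11.15, mutant ovaries 10.90, 10.81 and 11.32, and testes 8.06, 7.98 and 8.28. Mutant ovary 3 lay above wild-type ovary 2, so the ovary groups overlapped. The difference was -0.43 ± 0.19 (n = 3 and 2, limma adjusted p = 0.167), with a 95% interval from -0.86 to -0.01. It passed without wild-type ovary 2 (-0.73, adjusted p = 0.0249), and without wild-type ovary 1 it was -0.14.

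The distance between the α and β subunits was also taken within each array. Subtracting Inha from Inhba gave -1.05 and -0.93 for wild-type ovary against -3.79 to -3.75 for mutant ovary, which is a change of -2.78. For Inhbb minus Inha the change was -1.05. Each had an exact two-sided permutation p = 0.1, which is the smallest that 3 against 2 arrays allow, so that this test could not pass 0.05 (adjusted p = 0.267 over the 8 differences between members computed in this way).

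The activin-binding proteins moved in opposite directions. Fst, which encodes follistatin, had levels of 10.12 and 9.74 in wild-type ovary, of 6.50, 6.26 and 6.56 in mutant ovary, and of 5.56, 5.40 and 5.28 in testis. Every mutant ovary lay more than 3 log2 units below both wild-type ovaries. The difference was -3.49 ± 0.16 (SE, n = 3 and 2, limma adjusted p = 5.08e-07). Fstl3 encodes a relative of follistatin that is also found in the nucleus, and it had 6.10 and 5.92 in wild-type ovary, 8.99, 8.70 and 8.86 in mutant ovary, and 6.90, 6.51 and 6.79 in testis. It was thus lowest in wild-type ovary and highest in mutant ovary, without overlap of the 3 groups. The mutant difference was 2.84 ± 0.15 (adjusted p = 1.15e-06). Fstl3 minus Fst, within arrays, changed by 6.33 (exact permutation p = 0.1, the smallest possible, adjusted p = 0.267). The fall of Fst, Inhba and Inhbb and the rise of Fstl3 passed in all 15 alternatives computed for this comparison.

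None of the 3 receptor genes passed in the mutant ovaries. The type I receptor gene Acvr1b stood at 7.26 and 6.94 in the wild-type ovaries and at 7.05, 7.04 and 7.20 in the mutant ovaries. Its difference was -0.0048 ± 0.14 (n = 3 and 2, limma adjusted p = 0.989), with a 95% interval from -0.31 to 0.30. The type II receptor gene Acvr2a stood at 7.28 and 7.84 against 7.42, 7.74 and 7.45, with a difference of -0.02 ± 0.17 and an interval from -0.40 to 0.36. For Acvr2b, the other type II receptor gene, the values were 5.50 and 5.43 against 5.43, 5.41 and 5.23, the difference was -0.11 ± 0.13 and the interval ran from -0.41 to 0.19. The arrays of the 2 groups overlapped for Acvr1b and Acvr2a. All 3 Acvr2b values of the mutant ovaries lay just below both wild-type values, as 39.9% of all genes had groups that did not overlap in this comparison. At unadjusted p under 0.05 the count was 0 of 3 receptors, beside 28.9% of all genes.

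Tgfbr3 and Igsf1 did not pass either. Tgfbr3, which encodes betaglycan, stood at 8.69 and 7.74 in the wild-type ovaries and at 8.10, 8.11 and 8.29 in the mutant ovaries, all between the 2 wild-type values. Its difference was -0.05 ± 0.23 (n = 3 and 2, limma adjusted p = 0.926, 95% interval from -0.56 to 0.46). The sign depended on the wild-type array: the difference was 0.43 when wild-type ovary 1 was left out and -0.52, past the threshold, when wild-type ovary 2 was (adjusted p = 0.0392). Igsf1, an immunoglobulin superfamily gene of the pituitary, had levels of 3.21 to 3.53 on all 8 adult arrays, below the array medians of 4.83 to 4.94.

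Lists of cell type markers were also compared between the groups. In the mutant ovaries, where 6.66% of all genes fell and 9.55% rose, 5 of 11 measured granulosa cell markers fell and 2 rose. Of 10 Sertoli cell markers 9 rose and 0 fell, Sertoli cells being the supporting cells of the testis. The level summed over the granulosa markers, on the linear scale, was 5670 to 9168 in the wild-type ovaries, 4159 to 4602 in the mutant ovaries and 1130 to 1178 in the testes. For the Sertoli markers the sum was 493 to 559 in the wild-type ovaries, 4340 to 5469 in the mutant ovaries and 1606 to 1735 in the testes. No granulosa marker lay below the array median in either wild-type ovary, and 0 to 2 of the 11 did in the mutant ovaries. All 6 smooth muscle markers and 3 of 5 endothelial markers fell. Of 12 oocyte markers 0 passed (1 at unadjusted p under 0.05, limma, beside 28.9% of all genes). The part of these cell types in the changes of the members was not tested.

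The comparison of wild-type testis with wild-type ovary gives the range of these genes between the organs. All 3 subunit genes and Fst were lower in testis, by 54.4-fold for Inhba, 22.9-fold for Fst, 11.9-fold for Inhbb and 10.1-fold for Inha. On the log2 scale the differences were -5.77 ± 0.28, -4.52 ± 0.16, -3.58 ± 0.12 and -3.34 ± 0.19 in that order (SE, n = 3 and 2, limma adjusted p of 9.94e-08 or less). Inhba lay near or under the array medians in all 3 testes, and a difference against so dim a level is less certain in size. Tgfbr3 was lower by 1.55 ± 0.23 and Acvr2b by 0.69 ± 0.13, and Fstl3 was higher by 0.72 ± 0.15 (adjusted p = 0.00171). In all, 6 members were lower and 1 was higher, beside 35.9% and 24.4% of all genes, since 60.3% of all genes differed between these organs. Acvr1b (-0.17 ± 0.14), Acvr2a (0.13 ± 0.17) and Igsf1 (-0.19 ± 0.11) did not pass, though Acvr2a did without wild-type ovary 2 (0.41, adjusted p = 0.0394).

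Mutant ovary was also compared with testis. It exceeded testis in 7 of the 10 members and fell below it in 0 (limma), where 37.5% of all genes were higher, 24.3% lower and 61.8% different in either direction. At unadjusted p under 0.05 the count of lower members was also 0, beside 4992 of 19938 genes. Inha was higher by 2.90 ± 0.17 (SE, n = 3 and 3, adjusted p = 9.84e-08), Inhba by 2.55 ± 0.25, Fstl3 by 2.12 ± 0.13, Inhbb by 2.10 ± 0.11, Tgfbr3 by 1.51 ± 0.21, Fst by 1.03 ± 0.14 and Acvr2b by 0.58 ± 0.12. The 3 groups therefore ranked from wild-type ovary over mutant ovary to testis for Inhba, Inhbb and Fst, with every neighbouring pair past the threshold. For Inha, Tgfbr3 and Acvr2b the group means had the same order, but the 2 kinds of ovary did not pass the adjusted threshold. The ovary groups overlapped for Inha and Tgfbr3. For Tgfbr3 the mutant difference from wild-type ovary turned to 0.43 without wild-type ovary 1. Fstl3 ranked from mutant ovary over testis to wild-type ovary, with every neighbouring pair past the threshold, and for Acvr1b, Acvr2a and Igsf1 no pair of groups passed. The 3 adult comparisons share arrays, so these orders are a description of 8 arrays.

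**Figure D2:**
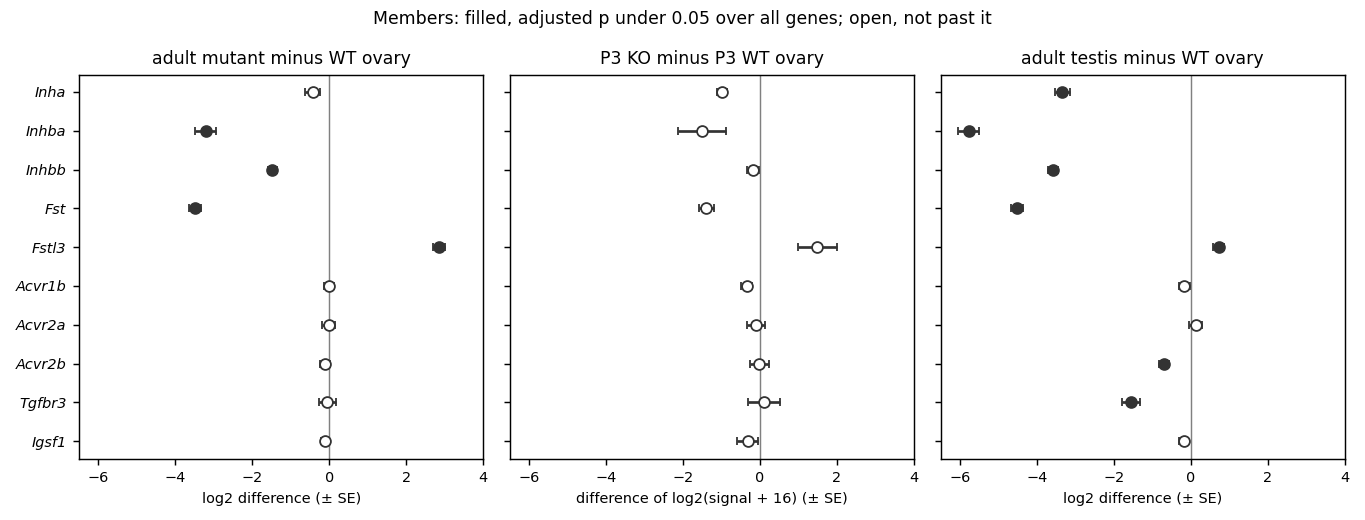
Difference of each member with its standard error: adult mutant minus wild-type ovary and adult testis minus wild-type ovary (log2 RMA), and P3 KO minus P3 wild-type ovary (log2(signal + 16)). Filled points passed an adjusted p of 0.05 over all genes and open points did not. In adult mutant ovary Fst (-3.49), Inhba (-3.21), Inhbb (-1.48) and Fstl3 (2.84) are filled, and at P3 all 10 points are open.

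At P3 none of the 10 members passed (limma, 0 of 10, where 0.324% of 18194 genes did). At unadjusted p under 0.05 the count was 4 of 10 members, beside 9.53% of all genes. Without an intensity trend the fit called 0 of all genes, Foxl2 included, so it says nothing about the members. The P3 values are MAS5 signals, and differences are on the log2(signal + 16) scale, which understates the change of dim genes. Fst had a signal of 1199 and 1031 in wild type against 467.4 and 359.9 in KO. Both KO values lay below both wild-type values. The difference was -1.40 ± 0.20 (SE, n = 2 and 2, limma adjusted p = 0.0641). A dimmer Fst probe set gave 173.1 and 122.8 against 20.9 and 94.4, a difference of -1.34. Inha had 4097 and 3517 in wild type against 1914 and 1880 in KO, again without overlap. Its difference of -0.99 ± 0.13 came to an adjusted p of 0.0519. Inha passed with a pseudocount of 1 (adjusted p = 0.0424), and both Inha and Fst passed when dim genes were left out of the fit (adjusted p = 0.0218 and 0.0167). Most settings gave no call: of 11 alternatives computed for each, Inha passed in 3 and Fst in 2.

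The other subunit and binding protein genes were dimmer or more variable at P3. Inhba gave 177.2 and 231.8 in wild type against 132.9 and 23.7 in KO. The KO pools differed from each other by more than either wild-type pool from the nearer KO pool, and the difference of -1.51 ± 0.63 (n = 2 and 2, limma adjusted p = 0.527) was -0.56 without KO pool 2 and -2.46 without KO pool 1. Fstl3 gave 88.4 and 23.6 against 172.2 and 157.7, so that both KO values were the higher ones, with a difference of 1.49 ± 0.51 (adjusted p = 0.4). It was 0.79 without wild-type pool 2 and 2.19 without wild-type pool 1. Inhbb gave 654.8 and 690.0 against 586.1 and 597.4. Its KO values too lay below both wild-type values, by a difference of -0.18 ± 0.16 (adjusted p = 0.825, 95% interval from -0.57 to 0.21).

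The receptor genes, Tgfbr3 and Igsf1 lay far from the adjusted threshold at P3. Acvr1b gave 1035 and 1020 in wild type against 780.7 and 824.2 in KO, or a difference of -0.35 ± 0.14 (n = 2 and 2, limma adjusted p = 0.511) without overlap. Acvr2a (-0.11 ± 0.23), Acvr2b (-0.02 ± 0.24) and Tgfbr3 (0.10 ± 0.41) overlapped between the groups. Tgfbr3 stood at 1058 and 436.9 in the 2 wild-type pools, so its 95% interval, from -0.90 to 1.09, was the widest after those of Inhba and Fstl3. Igsf1 gave 243.1 and 343.4 against 215.4 and 243.0, a difference of -0.32 ± 0.27. Dimmer probe sets, which were not kept, gave 0.43 for Acvr1b, 0.20 for Acvr2a and -0.09 for Tgfbr3. They gave -0.09 and 0.09 for Acvr2b and 0.21 and 0.08 for Igsf1. In 7 members the 2 P3 groups did not overlap, 6 lower and 1 higher in KO, and this held for 38.9% of all genes. Among the markers measured at P3, 2 of 11 granulosa and 2 of 12 oocyte genes fell, beside 0.187% of all genes. Of 9 Sertoli genes 1 rose, beside 0.137% of all genes. The sums of signal over these lists were 29358 to 29674 in wild type and 30842 to 32711 in KO for granulosa, 7088 to 7774 and 9121 to 9177 for Sertoli, and 106126 to 117706 and 86448 to 90725 for oocyte. On the log2 scale, where bright genes weigh less, the granulosa mean was 9.58 to 9.67 in wild type and 8.84 to 9.0 in KO, opposite in direction to the sum. Their part in the values of the members was not tested.

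**Figure D3:**
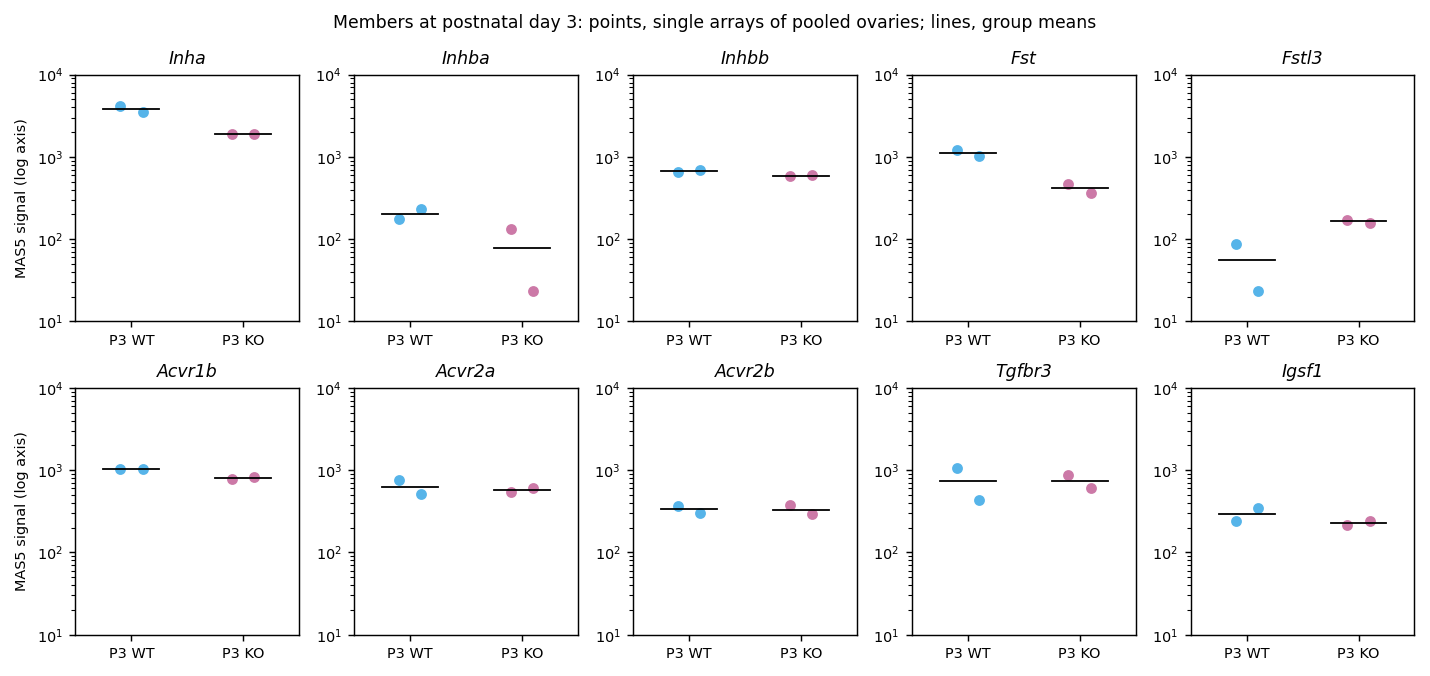
MAS5 signal of the 10 members on each P3 array, on a log axis, in pools of wild-type and KO ovaries (2 arrays each). Points are single arrays and lines are group means. Inha and Fst lie lower in both KO pools than in both wild-type pools, Fstl3 lies higher in both, and 1 of the 2 KO pools is far below the others for Inhba.

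Set side by side, the adult and P3 values of the strongest members were -3.49 and -1.40 for Fst, -3.21 and -1.51 for Inhba and 2.84 and 1.49 for Fstl3. Inhbb was -1.48 in adults and -0.18 at P3, and Inha -0.43 in adults and -0.99 at P3. The 2 sets share no array, but they differ in platform, labelling, normalization and the kind of mutation, so a difference between the ages was not tested.

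The 2 adult wild-type ovaries were compared array by array, which gives a difference with no replicate check. Wild-type ovary 1 was higher in 9 of 10 members, beside 52.8% of all genes. Tgfbr3 differed most, by 0.95, and 3.85% of all genes differed by at least as much. Inhba differed by 0.70 (7.83% of genes), Inha by 0.58 (11.7%) and Fst by 0.38 (25.5%), while the gap was 0.22 for Inhbb and 0.17 for Fstl3. Acvr2a was the member higher in wild-type ovary 2, by 0.56 (12.5% of genes). The median gap of all genes was 0.21 in either direction. For Tgfbr3 the mutant ovaries spanned 0.19 and the testes 0.25, and for Acvr2a they spanned 0.32 and 0.01, so that the wild-type ovaries were the most spread of the 3 groups in both genes.

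**Figure D4:**
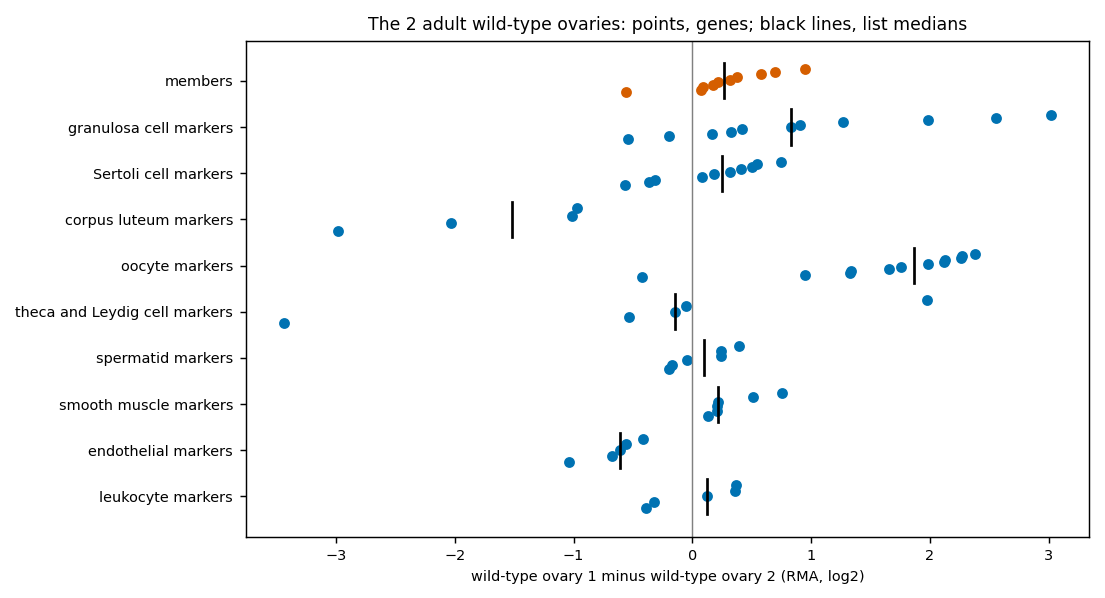
RMA level (log2) in wild-type ovary 1 minus wild-type ovary 2 for the 10 members and for the marker lists. Each point is a gene and each black line the median of its list. The members lie between -0.56 and 0.95, the oocyte markers have a median of 1.87 and the corpus luteum markers one of -1.52.

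These gaps ran beside larger ones in some of the lists of cell type markers. Wild-type ovary 1 was higher in 11 of 12 oocyte markers (median 1.87) and in 9 of 11 granulosa markers (median 0.83), among them Amh by 3.02, the hormone of small growing follicles, and Fshr by 2.56, the receptor of follicle-stimulating hormone. Wild-type ovary 2 was higher in all 4 measured corpus luteum markers (median -1.52) and all 5 endothelial markers (median -0.61). The theca and Leydig markers were mixed (median -0.15). Wild-type ovary 2 was higher in 4 of 5, from -3.44 for Star, which carries cholesterol into mitochondria, to only -0.05 for Hsd3b6. Wild-type ovary 1 was higher in Cyp17a1, by 1.97. All 6 smooth muscle markers were also higher in wild-type ovary 1 (median 0.21). The sum over the corpus luteum markers was 1556 in wild-type ovary 1 and 5484 in wild-type ovary 2, and it also varied among the mutant ovaries, from 1230 to 3116. Whether the gaps of the members go with these markers was not tested.

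The other genes of the pathway were taken from 5 lists by role. Of 30 measured genes, 4 fell and 2 rose in adult mutant ovaries, where 16.2% of all genes changed. The call of 1 of the 4, Tdgf1, was lost in most alternatives, and the median difference was -0.04. Among 8 other ligands and convertases 2 fell. Gdf11, a ligand that shares the type II receptors and is bound by follistatin, stood at 6.62 and 6.61 in wild-type ovary and 5.46 to 5.56 in mutant ovary, a difference of -1.09 ± 0.12 (n = 3 and 2, limma adjusted p = 2.15e-04). Pcsk5, a convertase that cleaves precursors of this ligand family, fell by 1.10 ± 0.15 (adjusted p = 5.84e-04). Among 4 other receptors and co-receptors Bambi, a decoy receptor that damps the signal, rose by 0.78 ± 0.16 (adjusted p = 0.00753). Tdgf1, which encodes the co-receptor Cripto, fell by 1.04 ± 0.31 (adjusted p = 0.0455). The values of Tdgf1 were 5.29 and 4.01 in the wild-type ovaries and 3.34 to 3.94 in the mutant ovaries, and without wild-type ovary 1 the difference was -0.40 (adjusted p = 0.241). It passed in 6 of its 14 alternatives, with adjusted p from 3.2e-04 to 0.241 (limma).

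Among genes that act inside the cell, 2 of 13 passed, near the 16.2% of all genes that did. Of 8 Smad transducer genes 1 rose, Ppm1a, a phosphatase that acts on Smad proteins, by 0.76 ± 0.10 (n = 3 and 2, limma adjusted p = 4.48e-04). The signal carriers gave differences of -0.07 ± 0.11 for Smad2, 0.09 ± 0.12 for Smad3 and -0.05 ± 0.12 for Smad4. Of 5 measured feedback and response genes 1 fell, Skil, a corepressor that binds Smads. Its levels were 7.54 and 8.78 in the wild-type ovaries and 6.77 to 6.89 in the mutant ovaries. The difference was -1.31 ± 0.28 (adjusted p = 0.00937), with -1.92 when wild-type ovary 1 was left out and -0.69 when wild-type ovary 2 was. None of 5 other follistatin-domain genes passed, 0 also at unadjusted p under 0.05, beside 28.9% of all genes. Fstl1 gave 0.11 ± 0.28. In testis 19 of the 30 genes were lower than in wild-type ovary and 3 higher, beside 35.9% and 24.4% of all genes. Smad3 differed there by -2.86 ± 0.12. At P3 0 of 29 measured genes passed, beside 0.324% of all genes. At unadjusted p under 0.05 the count was 4, beside 9.53% of all genes. The smallest adjusted p was that of Pcsk5, whose signals were 1524 and 1254 in wild type and 610.6 and 583.8 in KO (-1.19 ± 0.16, limma adjusted p = 0.061). Smad3 gave 7113 and 6817 in wild type against 3545 and 4237 in KO, without overlap (-0.84 ± 0.13, n = 2 and 2, limma adjusted p = 0.0794).

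**Figure D5:**
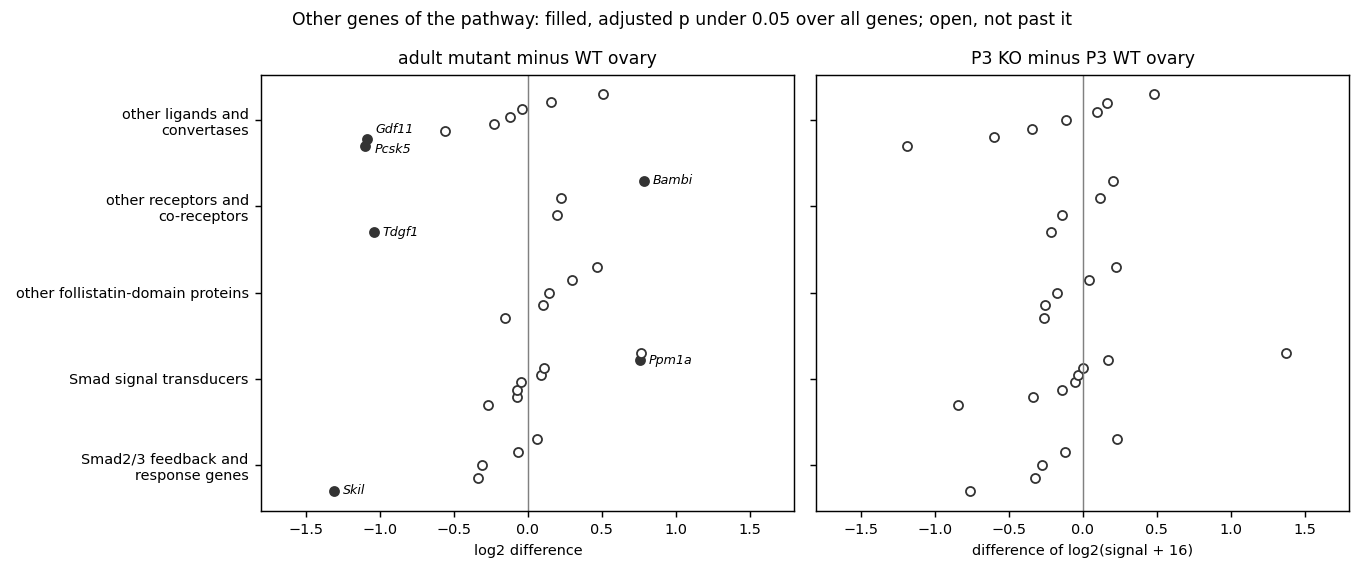
Differences of the other pathway genes by list, adult mutant minus wild-type ovary (log2 RMA) and P3 KO minus P3 wild-type ovary (log2(signal + 16)). Filled points passed an adjusted p of 0.05 over all genes, open points did not. In the adult comparison Gdf11, Pcsk5, Tdgf1 and Skil are filled on the low side and Bambi and Ppm1a on the high side, and at P3 no point is filled.

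Across the 8 adult arrays, the genes whose pattern was most like that of Fst were Glb1, Fbxl22, Gm5779, Nr5a2 and Robo1 (Pearson r from 0.992 to 0.997). Of these, Nr5a2, a nuclear receptor of granulosa cells needed for ovulation, had a mutant difference of -3.74 and Robo1, a guidance receptor, one of -2.28, while Gm5779 had -0.52. The nearest genes of Inhba were Pxdn, Astn1, Nox4, Chst11 and Hsd17b1 (r from 0.991 to 0.996). Their mutant differences ran from -3.46 for Hsd17b1, the enzyme that makes estradiol, to -0.36 for Astn1. For Inhbb they were Asah2, Ext1, Socs2, Gys1 and Bzw2 (0.996 to 0.998), with mutant differences from -1.85 to -0.96. For Inha they were Tcaf1, Pias3, Rnf215, Msln and Cdh11 (0.998 to 0.999), whose mutant differences lay between -0.72 and -0.20. The 8 arrays fall into 3 groups, which all these genes share, and the values are a description.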

How the data were processed

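Biotin-labelled RNA was hybridised from 300 ng (adult) or 1 µg (P3) per array, per the labels' protocols. The adult table holds log2 levels that the authors computed with RMA (Affymetrix Expression Console), as the submitters' processing notes say. The deposited P3 table holds MAS5 signal, an intensity on the linear scale, as the same notes say; its mean after trimming 2% at each end was 500 on all 4 arrays. The labels describe P3 labelling for CodeLink arrays, whereas the P3 probe sets carry Affymetrix names and MAS5 is used for Affymetrix arrays. The values are thus those of Affymetrix arrays, and the conflict over the labelling was not resolved. Tool versions were not given in the sources.

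Genes were named from the platform annotation, without probe sets that name several genes, and symbols were updated through RefSeq (GRCm38.p6). Of the probe sets of a gene, the brightest by its mean over all arrays of the table was kept. limma 3.58.1 in R 4.3.3 (lmFit, eBayes with an intensity trend, two-sided) was fitted to the 8 adult arrays together and to the 4 P3 arrays alone as log2(signal + 16). p-values were adjusted by Benjamini-Hochberg over each table's genes. The fits were also run on simulated data with the same spread in every group, so unequal spreads between the groups were not covered. The number of arrays limits the precision.

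Members and lists were chosen with earlier results of these data known. Named are all members, Foxl2, pathway genes past the threshold in mutant or KO against wild-type ovary, the 5 genes most correlated with Fst, Inhba, Inha and Inhbb, and at most 3 markers of a list. Smad2, Smad3, Smad4, Fstl1 and Pcsk5 at P3 were added after their values were seen. Alternatives were other probe set rules, eBayes without a trend, other normalizations and pseudocounts, a filter on dim genes, a replicate block, the compared groups alone and each array left out. Of the marker lists not described in the results, theca and Leydig cell markers gave 1 of 5 and leukocyte markers 2 of 5 higher in adult mutant ovaries (limma). There, 0 of 4 corpus luteum and 0 of 6 spermatid markers passed (0 and 1 at unadjusted p under 0.05, beside 28.9% of all genes). At P3, 0 passed in each of the corpus luteum, theca and Leydig, spermatid, smooth muscle, endothelial and leukocyte lists. In each, 1 to 2 did at unadjusted p under 0.05, beside 9.53% of all genes.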

Additional observations from a re-analysis of the deposited data

How the results depend on the processing

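Among single genes, 656 values computed under the alternatives kept their direction and side of the threshold, 14 lost the call (8 of them Tdgf1 in mutant against wild-type ovary), 9 gained it and 17 changed sign. The adult calls of Fst, Inhba, Inhbb and Fstl3 between mutant and wild-type ovary held under all 15 alternatives, with ranges of -3.68 to -3.30, -3.56 to -2.86, -1.60 to -1.37 and 2.76 to 2.93. All sign changes were in genes that missed the threshold. With arrays centred on their medians, Igsf1 in mutant ovary against testis became -0.018. With the mean of all probe sets, Acvr1b became 0.040 and Acvr2a 0.046 at P3. With single arrays left out, mutant against wild-type ovary ran from -0.16 to 0.15 for Acvr1b, -0.30 to 0.26 for Acvr2a and -0.52 to 0.43 for Tgfbr3, and testis against wild-type ovary from -0.15 to 0.41 for Acvr2a. At P3 the ranges were -0.39 to 0.17 for Acvr2a, -0.19 to 0.16 for Acvr2b and -0.52 to 0.72 for Tgfbr3.

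The count of all genes called in mutant against wild-type ovary was 1731 when only these groups were fitted, instead of 3232. At P3, 59 genes were called, but 22 with the mean of all probe sets, 0 without an intensity trend (limma; 1734 genes at unadjusted p under 0.05 with it), 226 without dim genes and 0 to 22 with an array left out. Of the members at P3, 1 was called with a pseudocount of 1 and 2 without dim genes, a filter that left out Inhba and Fstl3. Of the pathway genes, 1 and 2 were called in the same settings. Foxl2 at P3 lost its call with the mean of all probe sets (adjusted p = 0.23), without a trend (0.15) and without each array (0.0854 to 0.333).

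Replicate numbers are shared between groups in the labels but not stated to pair animals or pools, so they were not taken as pairs. Same-numbered arrays deviated together with correlations of -0.0028 to 0.079 in adults and 0.0423 at P3. Other arrays gave -0.0683 to 0.0667 and -0.0423. In a group of 2 arrays the deviations mirror each other, so these values cannot settle the pairing. With a replicate block, Acvr2a in mutant against wild-type ovary was 0.0025, Inha there passed (-0.56, adjusted p = 0.0361), and at P3 the calls rose to 2 members, 2 pathway genes and 305 genes in all.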
